A study of Mus musculus with 6 samples.

Results

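The proteasome genes were followed on 6 whole-transcript mouse arrays, 3 from satellite cells cultured for 5 days and 3 from freshly sorted satellite cells. These cells are stem cells that lie beside the muscle fibres. Members were all genes with a single-gene probe set whose symbol begins with Psm, a letter from a to g and a digit, leaving out the inducible Psmb8, Psmb9, Psmb10, Psme1 and Psme2, and 45 of the 19938 genes measured met this rule. The cells of both groups came from hind-limb, abdominal and triceps muscle of C57BL/6J mice aged 2 months, with no transgene or deletion named, and carried beta-1 integrin and CXCR4 and lacked CD45, CD31, CD11b, Ter119 and Sca1 at the sort. The cultured cells were plated on collagen and laminin in medium with horse serum and were given basic fibroblast growth factor every day, in a protocol text that stands on the labels of all 6 arrays, so that the titles and the cell type label alone set the groups apart. The labels name 3 mice but tie no array to a mouse, so that p-values reflect only how far these arrays differ, a spread that could be technical. All values are deposited log2 expression values, and a difference of 1 is a 2-fold change.

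The proteasome is the barrel-shaped protease that degrades proteins tagged with ubiquitin. Its core particle is built of outer alpha rings, which gate the entry, and inner beta rings, which carry the protease sites. The regulatory particle caps the core, with a base whose ATPases unfold the substrate and a lid that removes the ubiquitin chain. In muscle it removes contractile proteins during atrophy, and mouse satellite cells that lack the base ATPase Psmc4 are known to proliferate poorly. Of the 45 genes, 14 encode the alpha and beta rings, 17 the base and lid, 7 are assembly chaperones of core or base, 3 are alternative activators or an inhibitor, and 2 are the tissue-restricted ring subunits Psma8 and Psmb11. The remaining 2, Psmc3ip and Psme3ip1, match by symbol alone, since Psmc3ip is a meiotic recombination cofactor and Psme3ip1 binds the activator Psme3.

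The promoters are shown because their genes gave the only call among the members (Psmg4), its binding partner (Psmg3) and the general beta ring subunits whose groups did not overlap (Psmb4 and Psmb5). They are the 250 bases before the start site, 5′ to 3′ on the gene's strand, from RefSeq on GRCm38.p6. The promoter of Psmg4 lies on the plus strand at chr13:34162714-34162963, that of Psmg3 on the minus strand at chr5:139826895-139827144, that of Psmb4 on the minus strand at chr3:94886959-94887208 and that of Psmb5 on the minus strand at chr14:54617996-54618245. Capitals mark matches to the antioxidant response element, the sequence read by Nfe2l1 and Nfe2l2, searched as TGACNNNGC and TGAGNNNGC on both strands, forms that cannot overlap at the same start.
Psmg4: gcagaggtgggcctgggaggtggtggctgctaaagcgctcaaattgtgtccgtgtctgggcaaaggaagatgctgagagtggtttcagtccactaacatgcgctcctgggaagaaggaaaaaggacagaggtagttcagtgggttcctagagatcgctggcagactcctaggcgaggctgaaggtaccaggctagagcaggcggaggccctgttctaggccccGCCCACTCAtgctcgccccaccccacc
Psmg3: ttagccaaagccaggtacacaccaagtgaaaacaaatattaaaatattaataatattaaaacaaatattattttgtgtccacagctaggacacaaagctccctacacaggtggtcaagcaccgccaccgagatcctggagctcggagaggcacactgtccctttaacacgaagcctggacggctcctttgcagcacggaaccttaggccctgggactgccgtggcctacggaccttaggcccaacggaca
Psmb4: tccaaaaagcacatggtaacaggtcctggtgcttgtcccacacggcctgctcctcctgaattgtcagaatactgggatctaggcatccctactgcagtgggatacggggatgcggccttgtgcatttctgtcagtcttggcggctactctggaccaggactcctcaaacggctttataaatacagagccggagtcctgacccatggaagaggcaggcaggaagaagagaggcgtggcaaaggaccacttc
Psmb5: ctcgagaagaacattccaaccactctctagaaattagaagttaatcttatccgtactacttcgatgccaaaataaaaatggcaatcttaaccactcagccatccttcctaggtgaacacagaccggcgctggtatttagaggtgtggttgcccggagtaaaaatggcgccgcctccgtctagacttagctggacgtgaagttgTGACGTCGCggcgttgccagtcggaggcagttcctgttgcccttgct
Psmg4 held 1 match of the G form on the reverse strand, beginning 27 bases before the start site, and Psmb5 held 1 match of the C form on its own strand, 47 bases before it. No match in the other windows says only that these letters are not there. Promoters were found for 37 of the 45 genes, in 40 entries. The G form was in 11 of the 40 promoters (27.5%), against 14.4% of the 32851 promoters in the table, which include non-coding genes. Each entry of Psma6 is among the 11, and so is Psmc3ip, which matches the rule by symbol alone. The C form was in 5 of the 40 (12.5%), against 10.2%. The differences of these shares were not tested. The CCAAT box was in 15 (37.5%), against 33.8%, and the heat shock element (GAA, TTC and GAA, each parted by NN) was in 0 of 40, against 0.466%.

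The labelled cell type was checked on markers. Of 11 satellite cell markers 7 fell and none rose, against 3.37% and 0.953% of all genes. Their mean log2 level was 4.81 to 5.44 in cultured and 6.71 to 7.20 in fresh cells. The 6 fibro-adipogenic markers measured averaged 3.51 to 3.55 in cultured and 5.06 to 5.67 in fresh cells. Of them 3 fell, Col3a1, Dcn and Dpt, the last pair to within background in culture. Background was set at the level that 95% of 1190 odorant and pheromone receptor genes stayed under, 3.32 in cultured and 3.21 in fresh cells. The 7 differentiated muscle markers averaged 4.81, 5.03 and 6.31 on cultured replicates 1, 2 and 3, and 4.11 to 4.45 in fresh cells, with Myog and Tnnc1 higher and Ckm lower. The 6 mast cell and basophil markers averaged 3.21 to 3.73 in cultured and 2.25 to 2.42 in fresh cells, with Mcpt8 and Milr1 higher and Cpa3, Kit, Fcer1a and Ms4a2 within background in both. The 6 leukocyte markers averaged 2.79 to 2.84 in cultured and 2.76 to 3.07 in fresh cells, with none past limma's test. Of them 4, with Ptprc, were within background in both groups, Cd3e was above it in both, and Cd68 in fresh cells alone. The 6 endothelial markers averaged 2.79 to 2.92 in cultured and 2.70 to 2.72 in fresh cells. Of them Tek was lower, and the other 5 had positive fold changes, none past the test. Cldn5 was above background in both groups, with means of 4.06 in cultured and 3.30 in fresh cells (adjusted p = 0.0945 with limma), and 4, with Pecam1, were within it in both. The 5 tendon markers averaged 3.69 to 3.81 in cultured and 3.21 to 5.05 in fresh cells, with none past limma's test. The 1 erythroid marker measured, Alas2, was within background. The part of these lists in the proteasome values was not tested, and in bulk RNA fewer cells of a type and less RNA per cell cannot be told apart.

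In the cultured cells, a single proteasome gene passed the test, and the others did not. With limma and Benjamini-Hochberg adjustment over all genes, 1 of the 45 members passed an adjusted p of 0.05, the assembly chaperone Psmg4, which was lower, and 0 were higher. Over all 19938 genes 4.32% passed in either direction, 3.37% lower and 0.953% higher, and the share among the members was not above this. With dim genes left out, 1 of 43 members passed, against 8.24% of 10678 genes. At an unadjusted p under 0.05 there were 6 members, 4 higher and 2 lower, against 17.6% of all genes. The median log2 fold change was 0.16 over the 45 members and 0.04 over all genes, with 30 members above 0 and 15 below. The 95% interval of the fold change lay within 2-fold in both directions for 21 members, against 82.3% of all genes. For the other members the interval reached a 2-fold difference or went past it. The all-gene share is not of like brightness, since 8951 of the 19938 genes were within background in both groups, against 2 members. The median of the mean levels was 3.30 over all genes and 6.00 over the members.

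**Figure D1:**
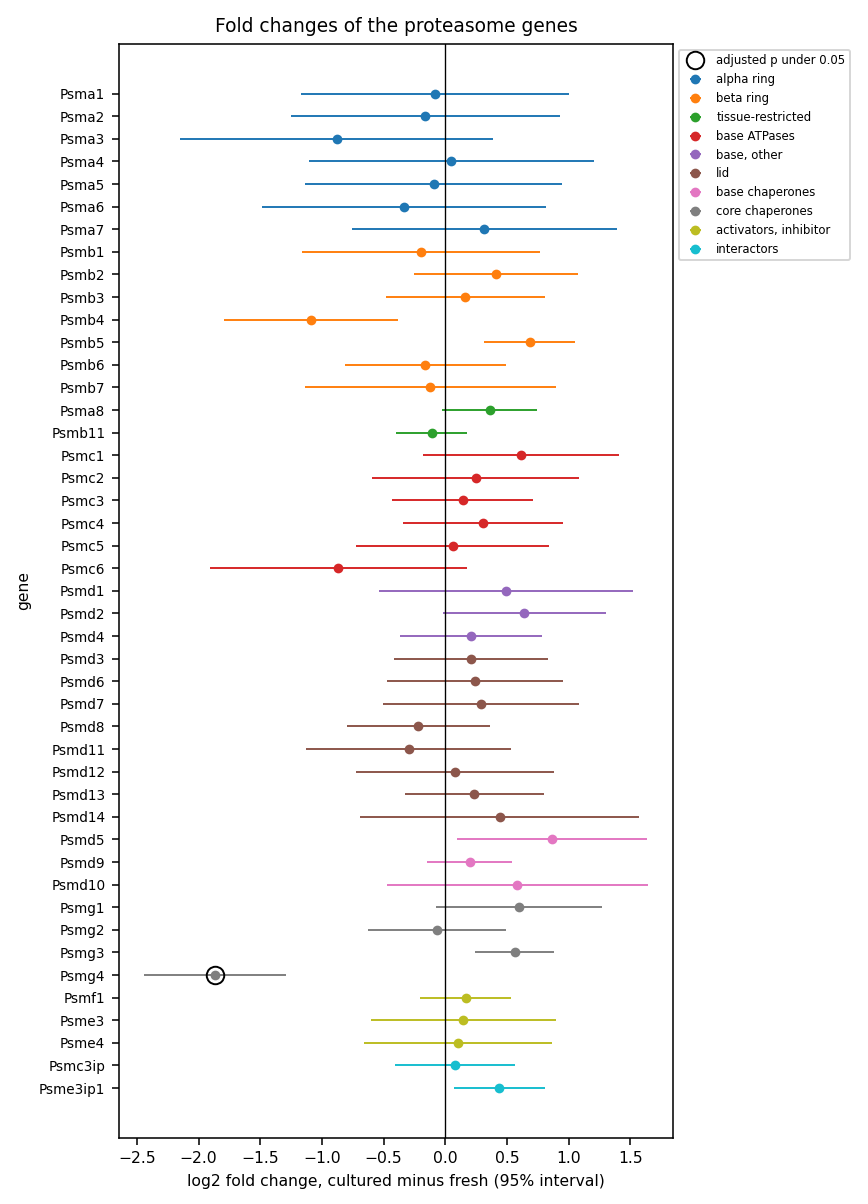
Log2 fold change (cultured minus fresh, x axis) of each of the 45 genes (y axis), as points with the 95% interval of the limma fit, coloured by group of subunits. The circle marks Psmg4, at -1.87, and the intervals of most ring and cap genes cross 0.

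The subunit genes varied far more between the cultured arrays than between the fresh arrays, and they did so together. The SD was larger in the cultured group for 39 of the 45 members, against 53.5% of all genes. The median SD of the members was 0.60 in cultured and 0.22 in fresh cells. Over all genes, of which 8951 were within background in both groups, it was 0.19 and 0.18. Cultured replicate 1 was the highest of the cultured arrays for 42 of the 45 members, against 41.7% of all genes. This was shared with other abundant complexes, since it was the highest for 58 of 59 cytosolic ribosomal protein genes and for 41 of 43 genes of respiratory complex I and its assembly, and the SD was larger in culture for 57 and 35 of them. Cultured replicate 1 lay above all fresh arrays for 39 members, against 36.8% of all genes. Cultured replicate 2 lay below all fresh arrays for 24 members, against 30.4% of all genes, 12 of them in the core particle. Psmd6, a lid subunit chosen after its values were seen, shows the pattern, with 7.24, 5.92 and 6.29 in cultured cells and 6.26, 6.24 and 6.23 in fresh cells. The fresh values of Psmd6 lie within the cultured range, and the fresh SD of 0.02 stands against 0.68 in culture.

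**Figure D2:**
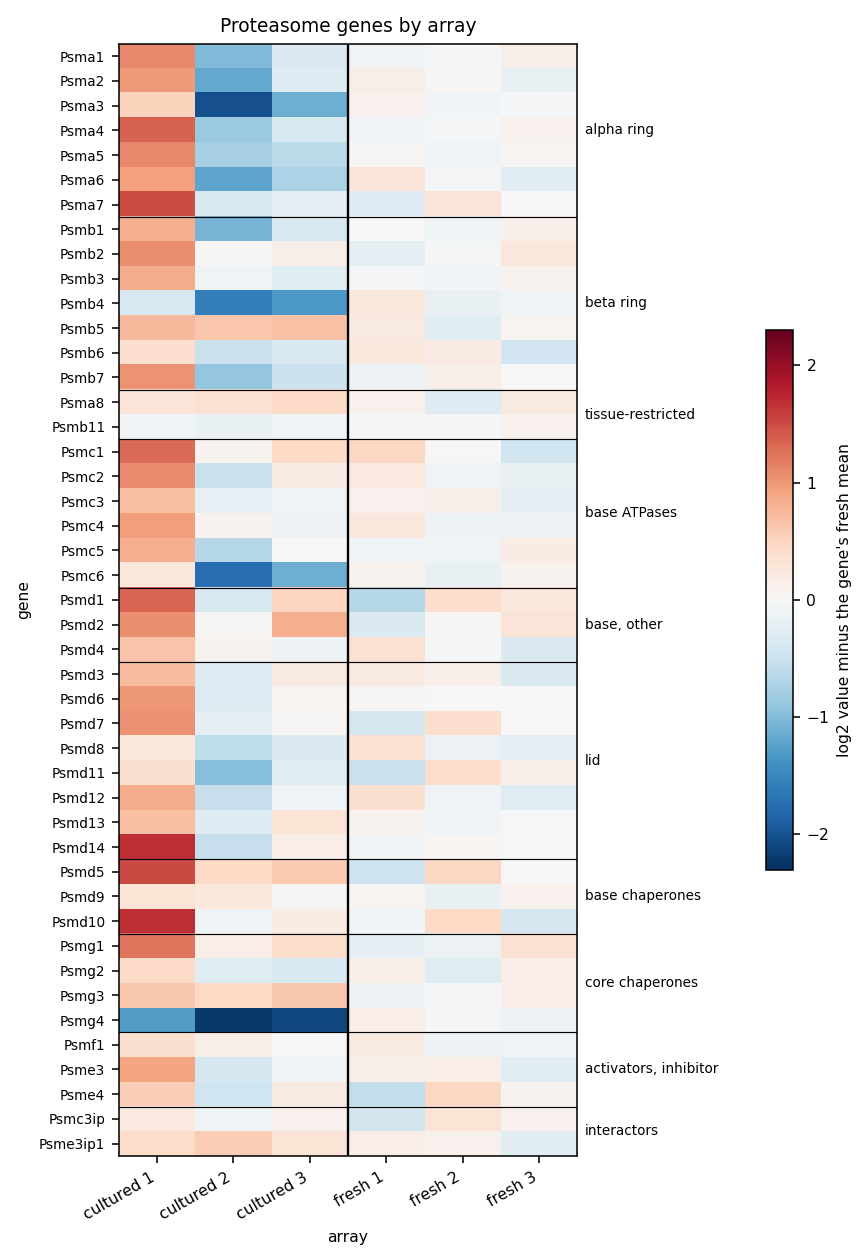
Log2 value of each gene (rows, grouped by subunit role) on each array (columns) minus the gene's mean over the fresh arrays, as colour. The column of cultured replicate 1 is mostly red and that of cultured replicate 2 mostly blue, while Psmg4 is blue on all 3 cultured arrays and Psmb5 red on all 3.

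Bright probe sets of other genes lay low on cultured replicates 2 and 3. For genes that are no members and had a mean of 7 to 8 over the 6 arrays, the median distance to the fresh level was -0.03, -1.36 and -0.93, taken over cultured replicates 1 to 3 in turn. The 9 members in that range had 1.03, -0.89 and -0.36. In the range of 5 to 6 the other genes had 0.13, -0.43 and -0.17, and the 8 members 0.91, -0.40 and -0.11. In the range of 6 to 7 the other genes had 0.10, -0.93 and -0.59, and the 10 members 0.84, -0.27 and -0.03. On cultured replicate 1 the members of these ranges thus lay above the fresh level by about 1, where other genes of like brightness lay near 0. On cultured replicates 2 and 3 the member medians of these ranges also lay above those of the other genes, though by little in the range of 5 to 6. In the range of 9 to 11, which holds 82 other genes and no member, the other genes had 0.47, -1.34 and -0.93. No test was made of the differences between members and other genes, and the part of array brightness in the members' values was not tested.

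**Figure D3:**
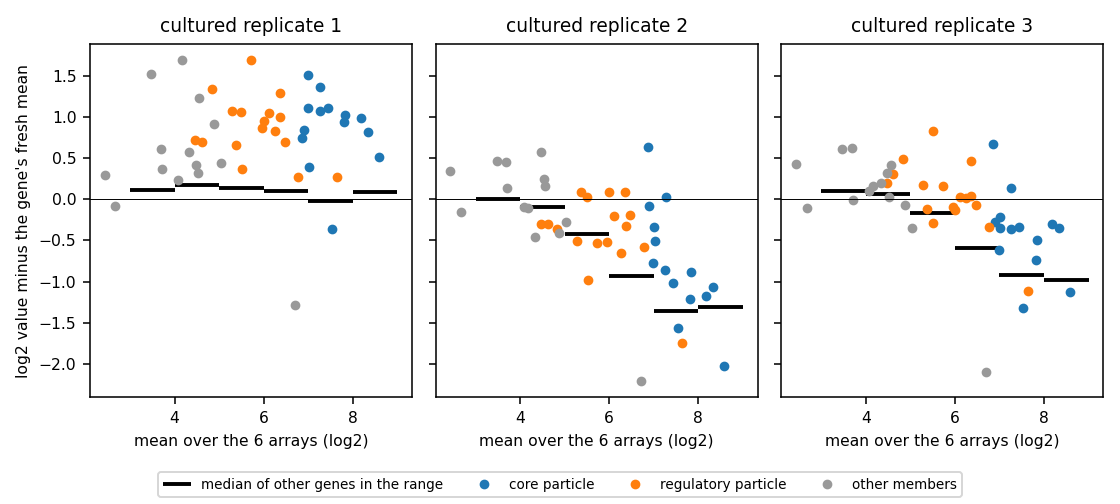
Difference from the gene's fresh mean (log2, y axis) on each cultured array, against the mean over the 6 arrays (log2, x axis), for core, regulatory and other members, with bars for the median of all other genes in each range. On cultured replicate 1 nearly all points lie above the bars, and on cultured replicates 2 and 3 the values fall with brightness.

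The level of these other complexes was read on the same arrays. For the 59 cytosolic ribosomal protein genes the same median distance was -0.29, -2.88 and -2.31, and 9 of them fell in the test. The 43 complex I genes, with symbols starting with Nduf, had 0.55, -0.43 and -0.12, with 2 lower. Of all genes 3.37% fell. The 45 proteasome members had 0.83, -0.32 and -0.07. In all 3 lists cultured replicate 1 had the highest and cultured replicate 2 the lowest median. These are descriptions of 3 arrays and were not tested against each other.

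None of the 14 core particle genes passed limma's test, with 1 higher and 1 lower at an unadjusted p under 0.05. None of the 17 regulatory particle genes did, with 0 at an unadjusted p under 0.05. Of all genes 4.32% passed the test, and 17.6% had an unadjusted p under 0.05. The core particle had a median log2 fold change of -0.11, with 5 genes above 0 and 9 below. The regulatory particle had a median of 0.24, with 14 above 0 and 3 below. The difference of the medians, core minus regulatory, was -0.34. By array, the core median was 8.47, 6.75 and 7.17 in cultured and 7.36, 7.36 and 7.47 in fresh cells. The regulatory median was 6.80, 5.40 and 5.82 in cultured and 5.62, 5.83 and 5.64 in fresh cells. Core minus regulatory was therefore 1.67, 1.36 and 1.35 in cultured and 1.75, 1.53 and 1.83 in fresh cells, ranges that overlap.

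The core probe sets were brighter, with a median mean of 7.35 against 5.96 for the regulatory probe sets, and across the 31 genes the fold change was lower where the probe set was brighter (Pearson r = -0.577, Spearman rho = -0.596, across genes on the same arrays, which are no independent replicates). Among the members with a mean of 5.5 to 7.5, a range chosen after the data were seen, the median was 0.11 for 8 core genes and 0.19 for 10 regulatory genes, a difference of -0.08. With cyclic loess the difference was 0.16, and with the arrays quantile-normalized once more it was 0.05.

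**Figure D4:**
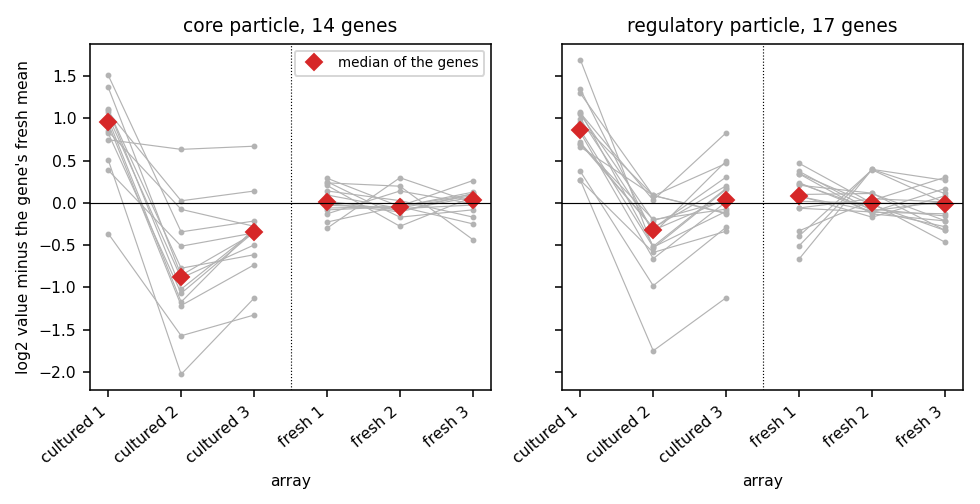
Log2 value minus the gene's fresh mean (y axis) on each array (x axis) for the 14 core genes and the 17 regulatory genes. Thin lines join the values of a gene within a group and have no order in time, and diamonds are medians, which lie near 0.9 on cultured replicate 1 in both particles and lower on cultured replicate 2 in the core than in the cap.

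The alpha ring, whose tails gate the pore, showed the widest array-to-array range. All 7 alpha genes lay above all fresh arrays on cultured replicate 1 and below all of them on cultured replicate 2. Psma3 had the lowest fold change of the ring, with 9.53, 6.99 and 7.89 in cultured and 9.11, 8.95 and 8.995 in fresh cells, a log2 fold change of -0.88 ± 0.55 (SE) with an adjusted p of 0.466. Cultured replicate 1 was above the fresh values and the other cultured arrays below them. The other 2 probe sets of Psma3 gave -0.95 and -1.04. Psma7 had the highest, with 8.36, 6.50 and 6.63 in cultured and 6.55, 7.14 and 6.85 in fresh cells, at 0.32 ± 0.46 with an adjusted p of 0.786. The groups of Psma7 overlap. Psma1, Psma2, Psma4, Psma5 and Psma6 lay between -0.34 and 0.05. Psma5 was measured by 2 probe sets with fold changes of -0.09 and -0.07.

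In the beta ring, the members with the largest differences moved in opposite directions and both missed the test. Psmb5, the chymotrypsin-like protease subunit, had 7.27, 7.16 and 7.19 in cultured and 6.73, 6.25 and 6.59 in fresh cells. All cultured values lay above all fresh values, and with an SD of 0.06 the cultured arrays differed less than for any other core gene. Its log2 fold change was 0.68 ± 0.16 (SE), with an interval of 0.31 to 1.05 and an adjusted p of 0.0609. Psmb4, a subunit with no protease site, had 7.71, 6.50 and 6.75 in cultured and 8.33, 7.91 and 7.99 in fresh cells, with no overlap. Its log2 fold change was -1.09 ± 0.30, with an interval of -1.79 to -0.38 and an adjusted p of 0.104. The other protease subunits did not share the pattern of Psmb5. Psmb6, the caspase-like subunit, was at -0.16 and Psmb7, the trypsin-like subunit, at -0.12. The structural subunits Psmb1, Psmb2 and Psmb3 were at -0.20, 0.41 and 0.16, and a further probe set of Psmb3 gave 0.26. Of all members, 4 had groups that did not overlap with the cultured arrays higher (Psmb5, Psmg3, Psma8 and Psme3ip1), against 12.9% of all genes, and 3 with the cultured arrays lower (Psmg4, Psmb4 and Psmb11), against 10.3%. The 7 together compare with 23.2% of all genes.

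The tissue-restricted Psma8, known from male germ cells, and Psmb11, known from the thymic cortex, were within background in both groups. Psma8 had 2.55, 2.60 and 2.68 in cultured and 2.35, 1.95 and 2.45 in fresh cells, and Psmb11 had 2.65, 2.58 and 2.63 in cultured and 2.69, 2.68 and 2.82 in fresh cells. The separations at this level, 0.36 and -0.11, had adjusted p of 0.315 and 0.714 with limma and are no sign that either gene is expressed.

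Among the base ATPases, which thread substrates into the core, Psmc6 was lowest, with 8.34, 6.33 and 6.95 in cultured and 8.16, 7.90 and 8.16 in fresh cells, at -0.87 ± 0.45 (SE) and an adjusted p of 0.377. Only cultured replicate 1 of Psmc6 reached the fresh level. Psmc1 was highest, with 7.35, 6.14 and 6.52 in cultured and 6.52, 6.05 and 5.59 in fresh cells, at 0.62 ± 0.34 and an adjusted p of 0.412. A further probe set of Psmc1 gave 0.05, so that the size of this difference depends on the probe set. Psmc2, Psmc3, Psmc4 and Psmc5 lay between 0.06 and 0.30.

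In the rest of the base, Psmd2, a scaffold that docks ubiquitin shuttle proteins, had 6.24, 5.21 and 6.01 in cultured and 4.85, 5.21 and 5.48 in fresh cells, at 0.64 ± 0.29 (SE) and an adjusted p of 0.300. Its further probe set gave 0.62. Psmd1, the other large scaffold, was at 0.49 with an adjusted p of 0.634. Psmd4, a ubiquitin receptor, had 5.93, 5.36 and 5.15 in cultured and 5.62, 5.25 and 4.95 in fresh cells, at 0.21 with an adjusted p of 0.732. The groups of both genes overlap. In the lid, Psmd14, the enzyme that cuts off the ubiquitin chain, had 7.20, 4.97 and 5.66 in cultured and 5.44, 5.55 and 5.51 in fresh cells, at 0.44 ± 0.49 and an adjusted p of 0.709. Cultured replicate 1 alone set its positive sign, and without it the value was -0.19. Psmd11, which clamps the lid to the core, had 6.03, 4.68 and 5.37 in cultured and 5.15, 6.06 and 5.77 in fresh cells, at -0.30 with an adjusted p of 0.737. The other 6 lid genes lay between -0.22 and 0.29.

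The chaperones that assemble the core particle gave the only call. Psmg4, which pairs with Psmg3 and helps to build the alpha ring, had 6.36, 5.43 and 5.54 in cultured and 7.79, 7.61 and 7.52 in fresh cells. Every cultured value lay more than 1 below every fresh value. The log2 fold change was -1.87 ± 0.25 (SE), a 3.64-fold fall, with a 95% interval of -2.44 to -1.29 and an adjusted p of 0.00552. The call held without any 1 of the 6 arrays, at adjusted p of up to 0.037. Psmg4 has 1 probe set, and no gene overlaps it in the GRCm38.p6 gene table.

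Psmg3, its partner, had 4.03, 3.87 and 4.03 in cultured and 3.29, 3.38 and 3.56 in fresh cells. All cultured values were higher, from a fresh level just above background, at 0.56 ± 0.14 (SE) with an adjusted p of 0.0689. Psmg4 minus Psmg3, a value chosen after both were seen, was 2.33, 1.56 and 1.51 in cultured and 4.50, 4.23 and 3.97 in fresh cells. The difference of the means was -2.43, given with no test because the separation of each gene fixes that of their difference. In the other pair of core chaperones, Psmg1 had 5.49, 4.42 and 4.67 in cultured and 4.04, 4.12 and 4.62 in fresh cells, at 0.60 ± 0.29 and an adjusted p of 0.344, and Psmg2 was at -0.06. The base chaperones were at 0.87 for Psmd5, 0.59 for Psmd10 and 0.20 for Psmd9. Psmd5 had 4.57, 3.50 and 3.65 in cultured and 2.57, 3.51 and 3.04 in fresh cells, a fresh mean within background, with an adjusted p of 0.223. Psmd9 had 4.75, 4.67 and 4.45 in cultured and 4.49, 4.26 and 4.53 in fresh cells, with an adjusted p of 0.561.

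**Figure D5:**
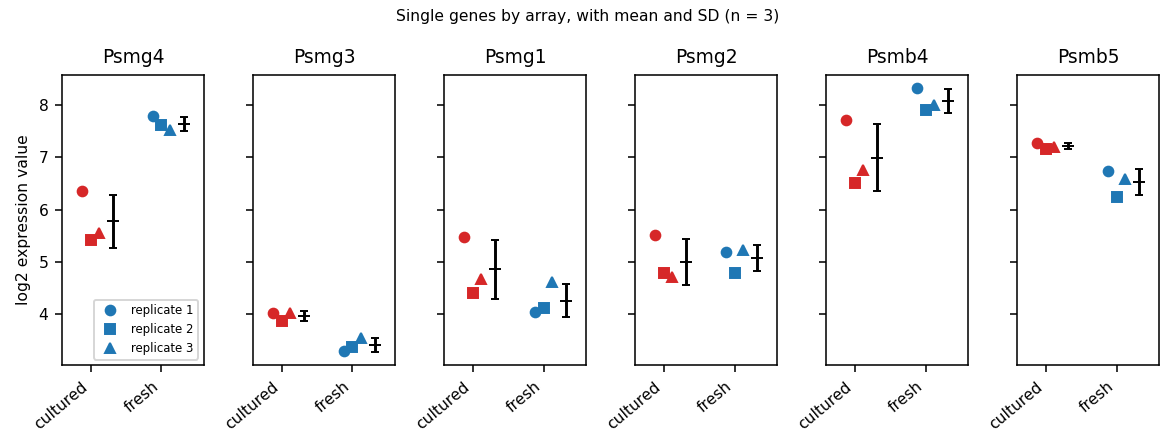
Log2 expression value (y axis) of Psmg4, Psmg3, Psmg1, Psmg2, Psmb4 and Psmb5 on the cultured and the fresh arrays, with symbols for replicates and bars for the mean and SD (n = 3). The groups do not overlap for Psmg4, Psmg3, Psmb4 and Psmb5, and levels of different genes are not comparable.

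The activators that replace the regulatory particle and the inhibitor Psmf1 differed little. Psmf1 had 3.99, 3.77 and 3.63 in cultured and 3.83, 3.51 and 3.55 in fresh cells, at 0.17 with an adjusted p of 0.659. Psme4, which caps the core in the nucleus, had 4.85, 3.82 and 4.48 in cultured and 3.72, 4.76 and 4.36 in fresh cells, at 0.10 with an adjusted p of 0.905. Psme3, the nuclear activator, was at 0.14. The interactor Psme3ip1 had 4.68, 4.83 and 4.58 in cultured and 4.40, 4.36 and 4.01 in fresh cells, at 0.44 with an adjusted p of 0.201, and Psmc3ip had 4.28, 3.95 and 4.14 in cultured and 3.62, 4.36 and 4.15 in fresh cells, at 0.08 with an adjusted p of 0.889. The groups of Psme3ip1 do not overlap and those of Psmc3ip do.

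The result turned on the array set and on the scale. Without cultured replicate 1, 6 members passed, all lower, against 7.61% of all genes: Psma3 (-1.58), Psma5 (-0.69), Psma6 (-0.97), Psmb4 (-1.45), Psmc6 (-1.44) and Psmg4 (-2.16). The core median was then -0.68 and the regulatory median -0.14. After a further quantile normalization 9 members passed, against 7.58% of all genes. Psmg4 was lower, and Psmb2 (0.98), Psmb3 (0.68), Psmb5 (1.26), Psmc1 (1.04), Psmc3 (0.59), Psmd2 (0.86), Psmd6 (0.65) and Psmg3 (0.54) were higher. With cyclic loess 4 passed, against 7.48% of all genes: Psmg4 (-1.57) and Psmb4 (-0.59) were lower, and Psmb2 (0.83) and Psmb5 (1.01) higher. With array weights 4 passed, against 8.74% of all genes: Psmg4 and Psmb4 lower, Psmb5 and Psmg3 higher. Psmg4 was lower and past the test under all 14 other settings tried, with log2 fold changes between -2.16 and -1.41.

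The inducible subunits left out by the rule replace Psmb6, Psmb7 and Psmb5 or form the interferon-induced activator. Of these 5, 0 passed limma's test. At an unadjusted p under 0.05 there was 1, which was lower, against 17.6% of all genes in either direction. Psme2 had 4.53, 3.84 and 4.50 in cultured and 5.48, 4.83 and 5.56 in fresh cells, at -1.003 with an adjusted p of 0.0835. The cultured values of Psme2 lay below the fresh ones. Psmb10 was at 0.32, Psmb8 at -0.28, Psme1 at -0.25 and Psmb9 at 0.14.

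Of the proteasome-associated factors, 15 of 18 listed were measured and 1 fell, against 3.37% of all genes. This was Zfand5, a ubiquitin-binding activator of the proteasome known from atrophying mouse muscle. It had 5.07, 4.71 and 4.88 in cultured and 8.43, 8.55 and 8.09 in fresh cells. The groups lie about 3 apart, at -3.47 ± 0.17 (SE) with an adjusted p of 3.11e-05, and the call held without any 1 array. The next largest were the shuttle factor Ubqln2 (-0.85), the deubiquitinases Uchl5 (0.68) and Usp14 (0.64), none past the test. Pomp, which chaperones the beta ring, was at -0.43 and Sem1, a small lid subunit with another symbol, at -0.62. The median of the list was -0.14, against 0.04 for all genes.

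Of the transcription regulators of proteasome genes, 2 of 7 measured fell and 0 rose, against 3.37% and 0.953% of all genes. The median of the list was -0.20. Nfe2l2, which switches on antioxidant and proteasome genes under oxidative stress, had 6.53, 5.55 and 5.69 in cultured and 7.84, 7.51 and 7.61 in fresh cells, at -1.73 ± 0.26 (SE) and an adjusted p of 0.00927. The groups do not overlap, and leaving out cultured replicate 3 ended the call (adjusted p = 0.0555). Nfyb, a subunit of the CCAAT-binding factor, had 5.55, 3.54 and 4.09 in cultured and 6.73, 6.76 and 6.48 in fresh cells, at -2.27 ± 0.45 and an adjusted p of 0.0332. Its call was lost without any 1 of the fresh arrays, and also without cultured replicate 2 or 3 (adjusted p of 0.0524 to 0.148). Nfe2l1, which restores proteasome transcripts when the protease is inhibited, was at -0.17, and Nfyc, Ngly1, Nfya and Nfe2l3 lay between -0.23 and 0.14, with adjusted p of 0.692 or more. Ngly1 was within background in both groups. In the list of the segregase Vcp and its cofactors 0 of 9 passed limma's test. At an unadjusted p under 0.05 there were 3 lower and 1 higher, against 17.6% of all genes in either direction. The 4 were Ubxn4 (-1.20), Plaa (1.09), Ubxn7 (-0.84) and Ufd1 (-0.67). Of 6 ubiquitin and activating enzyme genes 1 was measured, Uba6, which was at background with a fold change of -0.05.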

How the data were processed

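RNA of cultured and fresh satellite cells was biotin-labelled and hybridised to whole-transcript Affymetrix arrays, per the labels' protocols. The deposited table holds log2 expression values of 35556 probe sets, made by the authors with RMA and the package oligo, per the submitters' processing notes, with no version given. RMA corrects background, normalizes quantiles and summarises probes by median polish. In such values differences near background are compressed. Array medians lay between 3.10 and 3.15, under the background level of both groups, so they do not show that brighter genes share a scale. Other genes with a mean of 7 to 8 had medians of -1.36 and -0.93 against the fresh level on cultured replicates 2 and 3. A further quantile normalization moved the core median fold change from -0.11 to 0.47, so the deposited values were not equally distributed across the arrays. No scanner files were used, and the sources used here do not give the genome build behind the probe sets.

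Gene names came from the platform annotation, with symbols looked up by gene ID in the gene table of GRCm38.p6. Of the probe sets 21789 had 1 gene, 1621 several and 12146 were unlisted. The highest-mean probe set per gene left 19938 genes. The 45 members had 51 probe sets, and 5 members had more than 1. By symbol, the gene table lists 6 pseudogenes of Psma5, Psmb5, Psmb6 and Psmb7, so probes of these genes may read copies. Copies under other names were not searched for, so probes of other members, with their further probe sets, may read copies too. limma 3.58.1 in R 4.3.3 (lmFit, eBayes, group as the only term, no filter) gave two-sided p-values, adjusted over all genes by Benjamini-Hochberg. Members, gene lists and the rule for naming genes (all members, per-array values for called members and for the highest and lowest fold change of each subunit group, and of each related list those past the test and the 4 largest) were chosen with earlier results of these data known. Sequences and motifs were read from RefSeq promoters of GRCm38.p6. Alternatives were a replicate block, trended and robust prior, array weights, group-wise weights, quantile normalization, cyclic loess, a filter on dim genes, the mean of probe sets and leaving out each array. On simulated arrays for cultured against fresh over 19938 genes, limma recovered 24 of 50 genes changed by 1 on the log2 scale. It recovered 46 of 50 changed by 2. There were 6 false calls over all unchanged genes of the simulation, which also held genes changed by 3 and 4. The noise was independent between genes, with 1 SD per gene for both groups, and the changed genes were drawn at random from all genes. The members varied more in culture and moved together, so these rates cannot be carried over to them. Same-numbered arrays of the groups had correlations of their deviations from the group means of -0.09, -0.14 and 0.03, so the numbers were not taken to pair the samples. The number of arrays, 3 per group, limits the precision.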

Additional observations from a re-analysis of the deposited data

How the results depend on the processing

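The number of genes past the test was 861, and 1742 with array weights, 1511 after a further quantile normalization, 1492 with cyclic loess and between 448 and 1517 when 1 array was left out (448 without cultured replicate 3, 1517 without cultured replicate 1, 478 without fresh replicate 2 and 471 without fresh replicate 3). Members past the test were 1, and 4, 9 and 4 under the first 3 of these settings and 1 to 6 when 1 array was left out. Of the core particle 0 passed, and 2, 3 and 3 did under those settings and 0 to 4 when 1 array was left out. Of the regulatory particle 0 passed, and 4 after quantile normalization and 0 to 1 when 1 array was left out. The difference of the medians, core minus regulatory, was -0.34, and 0.048 after quantile normalization, 0.16 with cyclic loess, -0.084 among members with a mean of 5.5 to 7.5 (a range chosen after seeing the data), and -0.55 to -0.18 when 1 array was left out. The cause was not tested. When 1 array was left out, 25 of the 45 members changed sign in at least 1 fit, 15 of them without cultured replicate 1 and 9 without cultured replicate 2, with 0 past limma's test with the sign turned. Among those given with their values on each array, 4 changed sign only without cultured replicate 1. They were Psma7 (-0.28 to 0.65), Psmd14 (-0.19 to 0.93), Psmd6 (-0.14 to 0.52) and Psmd4 (-0.016 to 0.38). Psme4 (-0.17 to 0.39) did so without cultured replicate 1, at -0.13, and also without fresh replicate 1. Psmd11 (-0.63 to 0.043) did so without cultured replicate 2 and Psmc3ip (-0.13 to 0.24) without fresh replicate 1. With the replicate number as a block 662 genes passed, and Psmg4 remained past the test at an adjusted p of 0.00848. The block changed no other call among the members and related genes named. Over all settings the median fold change lay within -0.14 to 0.43 for all members, -0.68 to 0.47 for the core and -0.14 to 0.46 for the regulatory particle. Probe sets near background, such as Psmg3, Psmd5, Psma8 and Psmb11, can understate or hide a difference.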
